A study of Mus musculus with 9 samples.

Results

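Tuft cells are rare chemosensory cells of the intestinal epithelium, and the 10 genes examined here are ones by which they are recognised: *Dclk1*, *Trpm5*, *Pou2f3*, *Il25*, *Avil*, *Alox5*, *Hpgds*, *Ltc4s*, *Gfi1b* and *Sh2d6*. They were taken by name from the gene table of the study, all 10 matched an Ensembl identifier in it, and they are 10 of the 31685 genes listed. The table held RNA-seq values of jejunal tissue from 9 wild-type male C57BL/6J mice aged 6 to 8 weeks. They formed 3 groups of 3, compared at day 3: untreated controls, mice given total abdominal irradiation (TAI) with X-rays at 12 Gy and a saline injection, and TAI/IVIg mice, which received the same irradiation and human intravenous immunoglobulin (IVIg) at 500 mg/kg within the first hour, to be repeated every 3 days. The question was how abdominal irradiation altered the tuft cell transcripts and whether IVIg altered them further. All mice carried 1 batch label, and nothing beyond separate sample names says that the 3 mice of a group were independent litters or cages, so p-values measure the spread between these 9 samples.

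Tuft cells sense the lumen through a cascade like that of taste cells, which ends in opening of the cation channel encoded by *Trpm5*. Their identity depends on the transcription factor *Pou2f3*. Activated tuft cells release the cytokine interleukin-25 (*Il25*), which drives innate lymphoid cells to make interleukin-13, and they make leukotrienes and prostaglandin D2 through *Alox5*, *Ltc4s* and *Hpgds*. *Dclk1* encodes a microtubule-associated kinase, *Avil* the actin-bundling protein advillin, *Gfi1b* a zinc-finger repressor and *Sh2d6* an SH2-domain adaptor.

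The values are FPKM, fragments divided by the exon length in kilobases and by the library total, so they can be compared between genes. The reads behind them were recovered as whole numbers, and libraries held 16284530 to 18244736 reads in genes, with a median of 17312589. Tuft cell transcripts were scarce at this depth. A gene entered the test across all genes when it reached 1 FPKM in at least 3 mice, as 13056 genes and 4 of the 10 tuft cell genes did: *Sh2d6*, *Avil*, *Trpm5* and *Ltc4s*. *Ltc4s* reached 1 FPKM in 7 mice, 6 of them irradiated, so it passed through the groups in which it was high. The other 6 genes were compared by their values and by exact permutation, for which 3 mice against 3 can give no two-sided p below 0.10. Over all 9 mice the mean level ran from 3.64 FPKM for *Sh2d6* through 2.38 for *Ltc4s*, 2.15 for *Avil*, 1.91 for *Trpm5*, 0.893 for *Hpgds*, 0.747 for *Dclk1*, 0.419 for *Alox5* and 0.353 for *Pou2f3* to 0.0802 for *Gfi1b* and 0.0369 for *Il25*. *Il25* and *Gfi1b* rested on at most 3 and 7 reads in any library, and the intervals given for them cover counting error alone.

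The label names epithelial tissue, whereas the libraries also held transcripts of other layers. Summed over 11 smooth muscle and fibroblast genes, the level lay between 541 and 835 FPKM in the control and TAI mice. It was 596, 338 and 131 FPKM in TAI/IVIg 1 to 3. In TAI/IVIg 3 *Myh11*, the smooth muscle myosin, stood at 11.0 FPKM against 41.6 to 134 FPKM in the other 8 mice. The B cell list of 10 genes, made after the values had been seen, was highest in control 3 (497 FPKM in sum), TAI 3 (92.9 FPKM) and TAI/IVIg 2 (100 FPKM) of their groups, stood at 65.2 FPKM in control 1 and at 1.27 to 3.74 FPKM in the other 5 mice. Results are therefore also given without those 3 libraries. In such bulk tissue fewer cells of a type and less RNA per cell cannot be told apart. Of the 10 genes taken as defining tuft cells, 6 of which are among the genes examined, all were detected. The remaining 4 were *Rgs13* (1.07 to 5.79 FPKM), *Sh2d7* (0.402 to 1.31 FPKM), *Gnat3* (0.338 to 1.50 FPKM) and *Lrmp*, whose 15.4 FPKM in control 3 stood above 1.01 to 4.37 FPKM in the other 8 mice.

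Promoter sequence is shown for 3 genes: *Avil* and *Ltc4s*, whose levels separated control from TAI mice, and *Hpgds*, which carries the full octamer that POU transcription factors such as the product of *Pou2f3* recognise. *Trpm5* and *Gfi1b* separated those groups too, and their windows, which held no match, are not shown. RefSeq windows from 250 bases before to 50 bases after the transcription start (build GRCm38.p6) were found for 8 of the 10 genes, not for *Pou2f3* and *Il25*. Capitals mark ATGCAAAT, or ATGCAAA where the last base differs, on either strand.
Avil, chr10:127000459-127000758, plus strand: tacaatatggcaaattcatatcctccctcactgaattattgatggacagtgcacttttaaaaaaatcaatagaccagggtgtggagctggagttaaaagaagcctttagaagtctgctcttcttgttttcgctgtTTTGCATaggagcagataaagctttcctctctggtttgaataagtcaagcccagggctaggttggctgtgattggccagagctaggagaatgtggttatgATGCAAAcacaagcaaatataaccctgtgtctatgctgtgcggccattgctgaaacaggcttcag
Hpgds, chr6:65144681-65144980, minus strand: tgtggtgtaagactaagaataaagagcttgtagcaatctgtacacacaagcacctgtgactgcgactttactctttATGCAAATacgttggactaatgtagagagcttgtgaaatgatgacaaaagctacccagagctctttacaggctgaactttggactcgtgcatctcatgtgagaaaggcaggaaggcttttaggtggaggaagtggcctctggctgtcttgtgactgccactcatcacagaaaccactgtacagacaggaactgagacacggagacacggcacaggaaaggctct
Ltc4s, chr11:50238483-50238782, minus strand: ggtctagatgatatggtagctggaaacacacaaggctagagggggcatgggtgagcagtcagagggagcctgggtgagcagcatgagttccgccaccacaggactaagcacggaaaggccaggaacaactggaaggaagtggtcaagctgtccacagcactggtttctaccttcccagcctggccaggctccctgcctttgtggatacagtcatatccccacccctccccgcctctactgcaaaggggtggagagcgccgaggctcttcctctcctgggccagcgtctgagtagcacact
*Hpgds* held ATGCAAAT beginning 174 bases before its RefSeq start. The GENCODE annotation of the gene (chr6:65117293-65144908) begins further upstream, so there the octamer lies inside the gene. *Avil* held ATGCAAA 15 bases before its start and the reverse complement TTTGCAT 115 bases before it. Neither string occurred in the windows of the other 6 genes, *Ltc4s* included. Over all 32851 windows of the reference table, 1.74% held ATGCAAAT and 4.63% held ATGCAAA, which is part of it. A match is a description of letters and not a measured binding site.

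*Ltc4s*, encoding leukotriene C4 synthase, the enzyme that joins glutathione to leukotriene A4, lies at chr11:50236461-50238616 on the minus strand (GRCm38, as are all positions below). It was the tuft cell gene that rose after irradiation, and it was also high in the TAI/IVIg mice. It stood at 0.454, 1.23 and 0.513 FPKM in control 1 to 3, at 2.30, 2.48 and 3.84 FPKM in TAI 1 to 3 and at 2.58, 4.06 and 4.00 FPKM in TAI/IVIg 1 to 3. Every irradiated mouse lay above every control, and the TAI and TAI/IVIg ranges overlapped. Among all tested genes, 11.5% were likewise higher in every TAI/IVIg mouse than in every control. In reads, the gene had 8 to 22 in controls, 40 to 71 in TAI and 47 to 70 in TAI/IVIg mice. By limma on log2(FPKM + 1), the difference of TAI from control was 1.17 (SE 0.23, adjusted p = 0.00672) and that of TAI/IVIg from control 1.40 (SE 0.23, adjusted p = 0.00210). The ratio of mean FPKM was 3.93 and 4.85. Between TAI/IVIg and TAI the difference was 0.23, with a 95% interval from -0.30 to 0.76 (adjusted p = 0.658).

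Thus 1 of the 4 tuft cell genes tested was called in TAI against control, where 34.9% of all genes tested were, 8.81% on the higher and 26.1% on the lower side. In TAI/IVIg against control it was again *Ltc4s* of the 4, beside 46.4% of all genes, 9.06% on the higher and 37.4% on the lower side. Calls fell mostly on the lower side, and the median gene shifted by -0.24 (log2) in TAI against control and by -0.39 in TAI/IVIg against control. With the recovered reads scaled by median ratios the shift was near 0 and the share of calls that were higher went from 25.2% to 50.8% in TAI against control and from 19.5% to 50.4% in TAI/IVIg against control. *Ltc4s* had entered the test through the irradiated groups, in which it was high, so these counts are not independent of the filter. The call of *Ltc4s* held under each of the 9 fits that left out 1 mouse, but those kept the same genes. With no filter its limma adjusted p was 0.0193 in TAI and 0.00686 in TAI/IVIg against control. Without the 3 libraries richest in B cell genes its difference of TAI from control was 0.91 (adjusted p = 0.0741), which is no longer a call, and that of TAI/IVIg from control was 1.23 (adjusted p = 0.0229). The antisense gene *Gm26542* shares 268 exonic bases, or 26.4%, with *Ltc4s* and was listed at 0.0376 to 0.498 FPKM. Strand use in the counting is not given in the sources used here, so reads of this pair cannot be told apart.

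**Figure D1:**
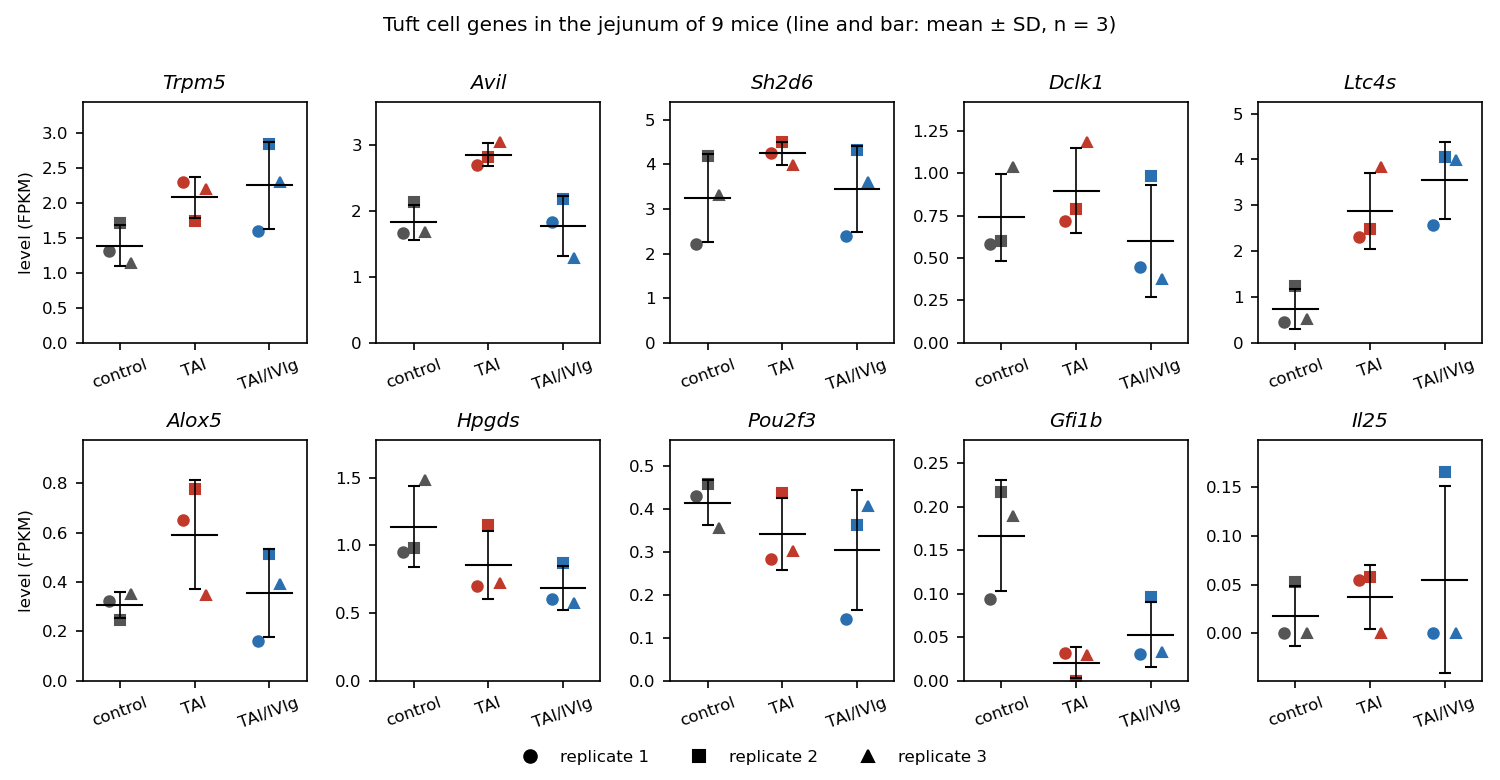
Levels of the 10 tuft cell genes (vertical axes, FPKM) in control, TAI and TAI/IVIg mice, with 1 point per mouse shaped by replicate number, a line at the mean and a bar of ± SD (n = 3). *Ltc4s* lay at 2.30 to 4.06 FPKM in the irradiated mice and at 0.454 to 1.23 FPKM in controls, *Avil* was highest in TAI mice, and *Gfi1b* was highest in controls.

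*Avil* (chr10:127000709-127020994, plus strand) had its highest levels in TAI mice, without passing the test across all genes in either comparison. Control mice had 1.66, 2.13 and 1.68 FPKM, TAI mice 2.70, 2.82 and 3.05 FPKM and TAI/IVIg mice 1.83, 2.18 and 1.28 FPKM. The TAI values overlapped with neither group, while TAI/IVIg mice lay within or below the control range except for TAI/IVIg 2, which exceeded control 2 by less than the spread between mice. TAI differed from control by 0.45 (SE 0.16, adjusted p = 0.0508) and TAI/IVIg from TAI by -0.49 (SE 0.16, adjusted p = 0.353). In TAI/IVIg against TAI no gene of the 13056 was called by limma (0%). Before adjustment 214 genes passed 0.05 on the higher and 1466 on the lower side, and voom with median-ratio sizes also called none. Groups that did not overlap were common in that comparison, with 16.1% of tested genes lower in every TAI/IVIg mouse. Leaving out TAI/IVIg 3, the mouse lowest in smooth muscle genes, gave a difference of -0.36. TAI/IVIg and control differed by -0.04 for *Avil*, and the sign turned to 0.42 with median-ratio sizes and to 0.45 (adjusted p = 0.0342) with library medians set equal. *Tsfm* overlaps 4.86% of the exonic length of *Avil* on the other strand.

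*Trpm5* (chr7:143069153-143094642, minus strand), the channel at the end of the sensing cascade, had 1.31, 1.72 and 1.14 FPKM in controls, 2.30, 1.75 and 2.20 FPKM in TAI mice and 1.61, 2.85 and 2.31 FPKM in TAI/IVIg mice. TAI and control mice did not overlap, although TAI 2 stood just above control 2, and TAI/IVIg 1 lay within the control range. With *Ltc4s* and *Avil* this made 3 of the 4 genes higher in every TAI mouse than in every control, as 15.1% of all tested genes were. The difference from control was 0.37 (SE 0.18, adjusted p = 0.137) in TAI and 0.44 (SE 0.18, adjusted p = 0.0734) in TAI/IVIg mice. TAI/IVIg and TAI differed by 0.07, with a 95% interval from -0.34 to 0.47. *Tssc4* overlaps 3.44% of the exonic length of *Trpm5* on the opposite strand and was read at 4.65 to 12.2 FPKM.

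*Sh2d6* (chr6:72513641-72521707, minus strand), the most abundant of the 10 genes, passed the test in no comparison. Its level was 2.21, 4.18 and 3.31 FPKM in controls, 4.25, 4.51 and 3.99 FPKM in TAI mice and 2.40, 4.32 and 3.60 FPKM in TAI/IVIg mice. All 3 groups overlapped, and the TAI mice were the closest to each other. TAI differed from control by 0.33 (SE 0.21, adjusted p = 0.251), TAI/IVIg from TAI by -0.26 (adjusted p = 0.583) and TAI/IVIg from control by 0.07 (adjusted p = 0.799).

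Whether *Avil* and *Trpm5* counted as higher depended on the scaling. On recovered reads with median-ratio sizes, chosen after the data had been seen, TAI differed from control by 0.96 for *Avil* (adjusted p = 0.00984), by 0.90 for *Trpm5* (adjusted p = 0.0309) and by 0.73 for *Sh2d6* (adjusted p = 0.0583). That scaling called 15.1% of all tested genes higher. For TAI/IVIg against control it called *Trpm5*, with 1.17 (adjusted p = 0.00758), beside *Ltc4s*, with 18.5% of all genes called higher. These changes are relative to the median gene, whereas the FPKM are relative to the library total.

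**Figure D2:**
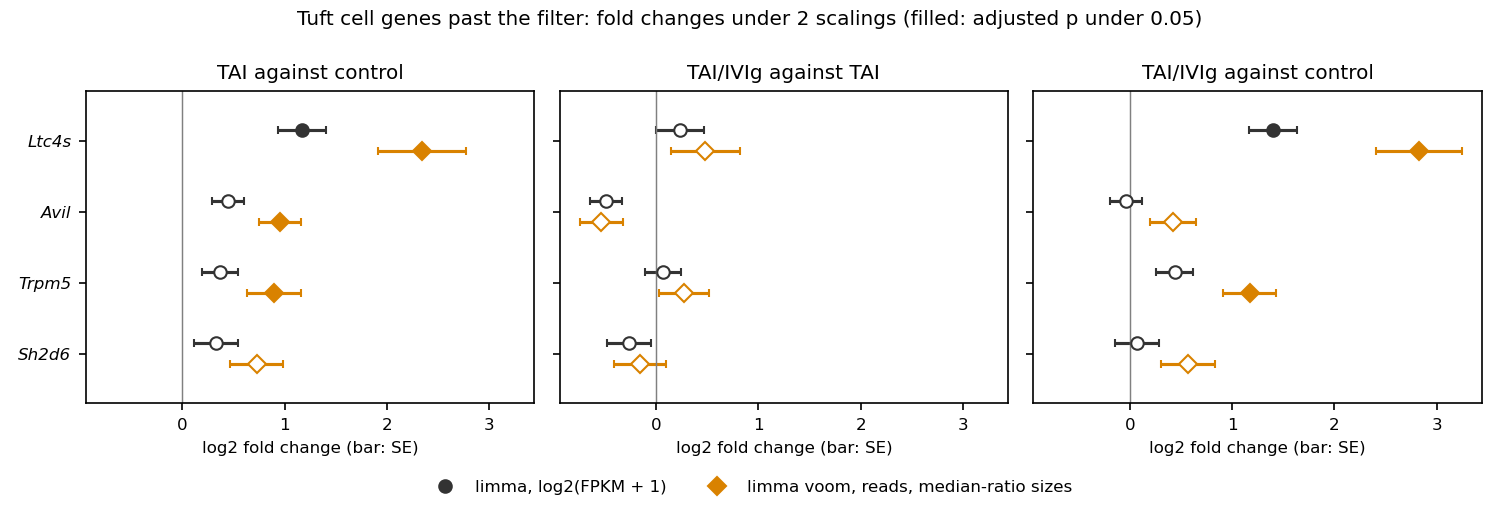
Log2 fold changes (horizontal axis, bars show SE) of the 4 tuft cell genes tested, in 3 comparisons of 3 mice each, by limma on log2(FPKM + 1) (circles) and by limma voom on recovered reads with median-ratio sizes (diamonds), with filled symbols for adjusted p under 0.05. *Ltc4s* is filled in both comparisons with control under either scaling, *Avil* and *Trpm5* turn from open to filled in TAI against control, and no symbol is filled in TAI/IVIg against TAI.

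*Dclk1*, the kinase gene most used to mark tuft cells, was not tested across all genes because it reached 1 FPKM in 2 mice. It stood at 0.583, 0.599 and 1.04 FPKM in controls, at 0.717, 0.791 and 1.19 FPKM in TAI mice and at 0.447, 0.981 and 0.378 FPKM in TAI/IVIg mice. In each group 1 mouse was well above the other two, and the groups overlapped. TAI minus control was 0.13 on the log2(FPKM + 1) scale (two-sided exact permutation p = 0.50), and TAI/IVIg minus TAI was -0.26 (exact permutation p = 0.30). The high mouse of each group was the one with the most B cell transcripts, control 3, TAI 3 and TAI/IVIg 2. Their B cell sum was 92.9 to 497 FPKM, against 1.27 to 65.2 in the other 6 mice. Their part in the *Dclk1* level was not tested.

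**Figure D3:**
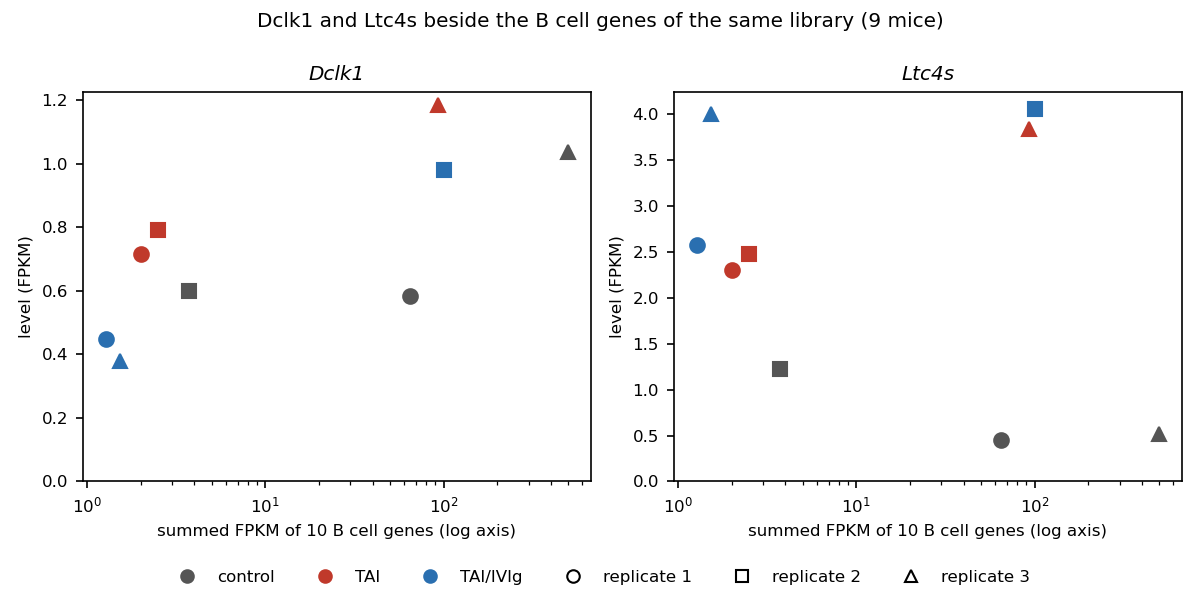
Levels of *Dclk1* (left) and *Ltc4s* (right) in FPKM against the summed FPKM of 10 B cell genes (log axis) in the same library, 1 point per mouse, coloured by group and shaped by replicate number. The highest *Dclk1* value of each group, 0.981 to 1.19 FPKM, lies at the highest B cell sum of that group. The highest *Ltc4s* value did so in TAI (3.84 FPKM, TAI 3) and TAI/IVIg mice (4.06 FPKM, TAI/IVIg 2). In controls it lay in control 2 (1.23 FPKM), at the lowest B cell sum. *Ltc4s* also reached 4.00 FPKM in TAI/IVIg 3 at a B cell sum of 1.53.

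The other prostanoid and leukotriene genes among the 10 did not separate control from TAI mice. *Alox5*, the 5-lipoxygenase that opens leukotriene synthesis, had 0.322, 0.248 and 0.352 FPKM in controls, 0.654, 0.778 and 0.347 FPKM in TAI mice and 0.163, 0.516 and 0.392 FPKM in TAI/IVIg mice. TAI 1 and 2 were high and TAI 3 lay among the controls (difference 0.28, exact permutation p = 0.20). *Hpgds*, the haematopoietic prostaglandin D synthase, whose promoter window holds the octamer, had 0.949, 0.978 and 1.48 FPKM in controls, 0.699, 1.15 and 0.725 FPKM in TAI mice and 0.606, 0.870 and 0.575 FPKM in TAI/IVIg mice. All TAI/IVIg mice lay below all controls (difference -0.34, exact permutation p = 0.10, the smallest that 3 against 3 allows). Of all genes listed, 25.3% were lower in every TAI/IVIg mouse than in every control. Among the 21151 genes at 0.1 FPKM or more in at least 3 mice, *Hpgds* included, 35.8% were.

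Among the transcription factors, *Gfi1b* (chr2:28609450-28621982, minus strand) had at most 3 reads in any irradiated mouse. It was read 3, 7 and 6 times in controls, 1, 0 and 1 times in TAI mice and 1, 3 and 1 times in TAI/IVIg mice. TAI lay below control without overlap (exact permutation p = 0.10), as did 19.8% of all genes listed, and TAI/IVIg 2 equalled control 1 in reads. Pooled over mice, TAI had 2 reads against 16, a ratio of 0.127 with an exact 95% counting interval from 0.0141 to 0.539, and TAI/IVIg had 5 against 16, a ratio of 0.316 (0.0906 to 0.903). With no filter, limma called *Gfi1b* lower in TAI (-0.19, adjusted p = 0.0291), where 8.72% of the 31685 genes were.

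*Pou2f3*, the factor on which tuft cell identity depends, showed no separation. Its level was 0.429, 0.458 and 0.355 FPKM in controls, 0.283, 0.438 and 0.302 FPKM in TAI mice and 0.144, 0.362 and 0.406 FPKM in TAI/IVIg mice, from 8 to 25 reads. TAI minus control was -0.08 and TAI/IVIg minus control -0.12 on the log2(FPKM + 1) scale, with exact permutation p = 0.30 for each.

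*Il25*, the cytokine gene, was barely detected. Control 2, TAI 1 and TAI 2 had 1 read each, TAI/IVIg 2 had 3, and the other 5 mice had 0, which allows up to 0.155 to 0.168 FPKM in those libraries. A difference in *Il25* between groups was not detectable at this depth. The pooled ratio of TAI to control was 2.03, with an exact counting interval from 0.106 to 120.

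Summed over the 10 genes, the level was 8.02, 11.8 and 10.1 FPKM in controls, 14.0, 14.8 and 15.7 FPKM in TAI mice and 9.81, 16.4 and 13.0 FPKM in TAI/IVIg mice. TAI mice lay above the controls, and TAI/IVIg mice spanned both groups. The sum mixes directions, since *Gfi1b*, *Hpgds* and *Pou2f3* had lower means in TAI mice than in controls while the other 7 had higher ones. Of those 7, only *Ltc4s*, *Avil* and *Trpm5* were higher in every TAI mouse, as 15.1% of all tested genes were. *Il25* rested on 2 reads against 1. The 10 tuft cell defining genes summed to 14.2, 17.2 and 30.3 FPKM in controls, with 15.4 of *Lrmp* in control 3. They summed to 15.2, 16.7 and 16.7 FPKM in TAI and 9.49, 19.9 and 12.3 FPKM in TAI/IVIg mice, so control and TAI ranges overlapped.

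The 5 tested genes whose levels followed the mean of the 4 tested tuft cell genes most closely over the 9 mice were *Fam198b* (Pearson r = 0.954), *Fzd4* (0.930), *Jaml* (0.923), *Micall1* (0.918) and *Aplp2* (0.913). *Fzd4*, a Wnt receptor, had 1.09 ± 0.34 FPKM in controls, 2.43 ± 0.31 in TAI and 2.41 ± 0.67 in TAI/IVIg mice (SD, n = 3). *Jaml*, a junctional adhesion molecule, had 4.28 ± 1.17, 8.32 ± 1.01 and 7.65 ± 1.80 FPKM. The 9 points share the 3 groups, and the values describe these mice.

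In the eicosanoid pathway around *Alox5*, *Ltc4s* and *Hpgds*, irradiated mice had more *Ltc4s* and *Hpgd*, less *Alox5ap* and less of the prostaglandin E synthases *Ptges2* and *Ptges3*. Of 22 genes, 16 were tested. After TAI, limma called 2 of them higher and 4 lower than in controls (median -0.01, against -0.24 for all genes), and for TAI/IVIg it called 2 higher and 6 lower (median -0.30, against -0.39). Of all genes, 8.81% and 26.1% were called higher and lower after TAI, and 9.06% and 37.4% after TAI/IVIg. The balance depended on the scaling, since median-ratio sizes called 2 higher and 2 lower after TAI, and 5 higher and 2 lower after TAI/IVIg. Of all genes, that scaling called 15.1% and 14.7% after TAI, and 18.5% and 18.2% after TAI/IVIg. *Hpgd*, which encodes the enzyme that inactivates prostaglandins, was at 59.6 ± 11.7 FPKM in controls, 160 ± 50.9 in TAI and 138 ± 11.0 in TAI/IVIg mice (SD, n = 3), a difference of 1.37 (SE 0.24, adjusted p = 0.00408) in TAI and 1.21 (adjusted p = 0.00427) in TAI/IVIg against control.

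*Alox5ap*, which presents arachidonate to 5-lipoxygenase, went the other way from *Ltc4s*. It had 1.95, 1.75 and 1.99 FPKM in controls, 0.986, 1.08 and 0.695 FPKM in TAI mice and 0.509, 1.04 and 0.798 FPKM in TAI/IVIg mice. Every irradiated mouse was below every control (TAI -0.60, SE 0.16, adjusted p = 0.0185). Of all tested genes, 38% were lower in every TAI mouse than in every control, and 44.3% in every TAI/IVIg mouse. With median-ratio sizes the TAI difference of *Alox5ap* was -0.75 and its adjusted p 0.0815. *Lta4h*, whose enzyme takes leukotriene A4 to leukotriene B4, differed by -0.60 (adjusted p = 0.0374) in TAI and by -0.30 (adjusted p = 0.221) in TAI/IVIg against control. With median-ratio sizes these became -0.32 (adjusted p = 0.249) and 0.17. The largest falls were those of *Ptges3* (TAI -1.50, adjusted p = 0.00108) and *Ptges2* (TAI -1.14, adjusted p = 0.00273). Without the 3 libraries richest in B cell genes, no gene of the pathway was called higher and 2 were called lower in TAI against control. Of all genes, 4.38% and 9.10% were called higher and lower in that fit. None was called in TAI/IVIg against TAI.

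**Figure D4:**
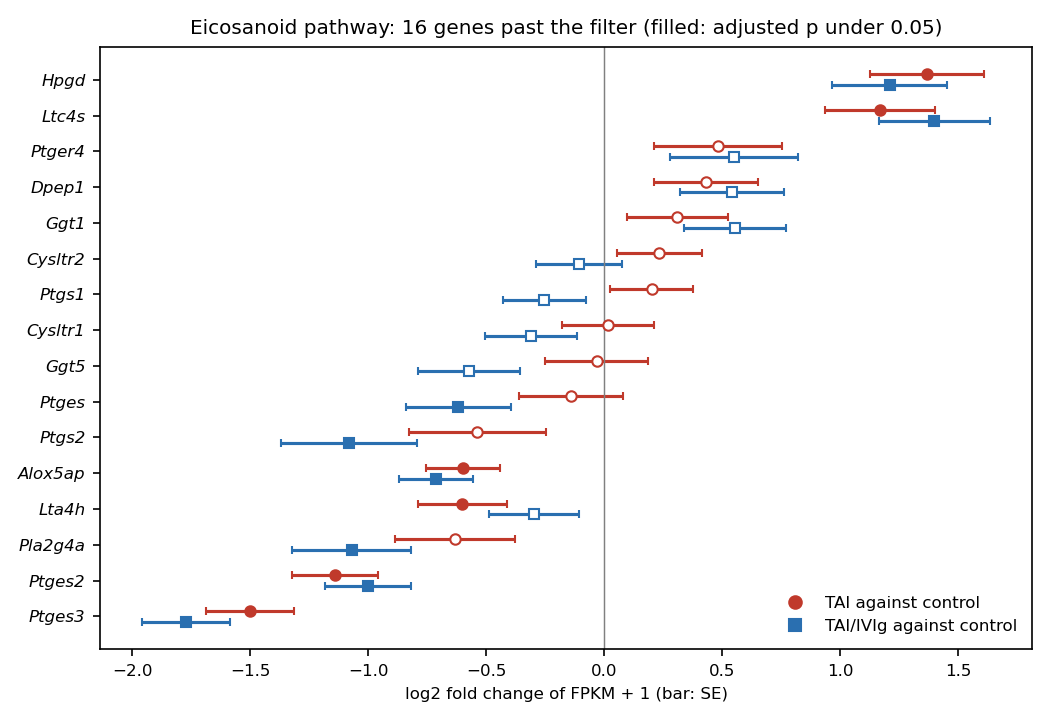
Log2 fold changes of FPKM + 1 (horizontal axis, bars show SE) of the 16 eicosanoid pathway genes tested, in TAI (circles) and TAI/IVIg (squares) mice against the same 3 controls, with filled symbols for adjusted p under 0.05. *Hpgd* and *Ltc4s* lie to the right in both comparisons, and *Ptges3*, *Ptges2* and *Alox5ap* lie to the left in both.

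Of 13 genes of the sensing cascade 7 were under 1 FPKM in every mouse and 5 were tested, *Trpm5* among them. Against controls none was called higher, 1 was called lower after TAI, where 26.1% of all genes were, and 2 after TAI/IVIg, where 37.4% were. With median-ratio sizes the call was 1 higher, *Trpm5*, and none lower in both comparisons. Of all genes, 15.1% and 14.7% were called higher and lower after TAI, and 18.5% and 18.2% after TAI/IVIg. *Plcg2*, a phospholipase also used by B cells, was lower in TAI mice at 3.97 ± 1.61 against 10.9 ± 5.53 FPKM (SD, n = 3; -1.22, adjusted p = 0.0440, 0.0573 with the replicate number as a block and 0.0644 with median-ratio sizes). *Plcb2*, the phospholipase between taste receptor and channel, had 1.05, 1.06 and 3.29 FPKM in controls and 0.752, 0.959 and 1.01 in TAI mice, its highest value again in control 3, and *Gnat3*, the taste G protein gustducin, had 0.338, 1.50 and 0.679 FPKM in controls and 0.644 to 0.812 in TAI mice. Receptor transcripts were scarce, with 0 to 17 reads for *Tas1r2* and 5 to 23 for *Sucnr1*, the succinate receptor.

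Of 11 listed regulators of tuft and secretory fate, 7 were tested, and TAI against control called 2 higher and 1 lower, beside 8.81% and 26.1% of all genes. With median-ratio sizes 3 were called higher and none lower, beside 15.1% and 14.7% of all genes. *Dll1*, a Notch ligand, rose from 9.65 ± 0.30 to 18.0 ± 1.91 FPKM (SD, n = 3; 0.83, adjusted p = 0.00960) and *Sox9* from 1.94 ± 0.88 to 5.32 ± 2.26 FPKM (1.08, adjusted p = 0.0463), while *Atoh1*, the secretory fate factor, fell from 7.63 ± 1.49 to 4.30 ± 0.56 FPKM (-0.69, adjusted p = 0.0234, or -0.50 and 0.137 with median-ratio sizes). In TAI/IVIg against control, *Dll1* differed by 0.88 (adjusted p = 0.00516), *Atoh1* by -1.16 (adjusted p = 0.00208) and *Sox9* by 0.27 (adjusted p = 0.562).

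Of 51 listed other genes of the tuft cell signature, 37 were tested. TAI against control called 2 higher and 5 lower (median -0.37, against -0.24 for all genes), and TAI/IVIg against control 2 higher and 11 lower (median -0.64, against -0.39), where 8.81% and 26.1%, and 9.06% and 37.4%, of all genes were called. The genes called higher in TAI were *Krt23*, a keratin (3.26 ± 0.86 to 12.2 ± 4.45 FPKM, SD, n = 3; 1.59, adjusted p = 0.00551), and *Espn*, an actin bundler of microvilli (0.65, adjusted p = 0.0334). *Krt23* had 5.40 ± 2.07 FPKM in TAI/IVIg mice, a difference of -1.03 from TAI (adjusted p = 0.353). *Inpp5j* (-1.15, adjusted p = 0.00198), a phosphoinositide phosphatase, and *Atp2a3* (-1.01, adjusted p = 0.00776), a calcium pump, were lower in TAI than in control mice. With median-ratio sizes the counts were 3 higher and 2 lower in TAI and 5 higher and 4 lower in TAI/IVIg against control. Of all genes, 15.1% and 14.7%, and 18.5% and 18.2%, were so called. Many genes of this list are also transcribed in lymphocytes or other epithelial cells.

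The partners of *Il25* were detected unevenly. *Il17rb*, its receptor chain, had 0.402 to 0.795 FPKM over the 9 mice with overlapping groups, and *Il13* had 1 read in control 1 and in TAI 3 and 0 elsewhere. Of 23 genes in this circuit 9 were tested, and TAI against control called 2 higher and 1 lower, beside 8.81% and 26.1% of all genes. TAI/IVIg against control also called 2 higher and 1 lower, beside 9.06% and 37.4%. With median-ratio sizes the counts were 2 higher and 0 lower in TAI, beside 15.1% and 14.7% of all genes. In TAI/IVIg they were 4 higher and 1 lower, beside 18.5% and 18.2%. *Il4ra*, a subunit of the interleukin-4 and interleukin-13 receptor, rose from 18.3 ± 4.05 to 45.4 ± 8.48 FPKM (SD, n = 3) in TAI mice (1.27, adjusted p = 0.00360) and was 34.0 ± 7.05 in TAI/IVIg mice. *Il33*, another type 2 alarmin, had 10.3, 9.61 and 9.79 FPKM in controls against 40.0, 64.5 and 15.2 in TAI mice (1.69, adjusted p = 0.0145) and 24.3, 27.7 and 31.8 in TAI/IVIg mice (1.40, adjusted p = 0.0227). *Areg*, which type 2 lymphocytes and epithelium make, fell from 108 ± 24.6 to 54.8 ± 7.19 FPKM in TAI (-0.95, adjusted p = 0.0342, or -0.67 and 0.111 with median-ratio sizes) and to 24.8 ± 9.43 FPKM in TAI/IVIg mice (-2.13, adjusted p = 0.000973).

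*Ltc4s*, *Alox5* and *Hpgds* are also transcribed in mast cells, eosinophils and macrophages, so the markers of those cells, and those of neutrophils, were set beside them. Of 12 mast cell genes 9 were under 1 FPKM in all mice, and their summed level was 3.49 to 5.73 FPKM in controls, 3.99 to 5.21 FPKM with TAI and 1.12 to 2.44 FPKM with TAI/IVIg. *Mcpt1* had 0 reads in 5 of the 6 irradiated mice and 8 to 33 in controls, and *Cpa3* had 0 to 5 reads in any mouse. Other genes of the list were higher in every TAI mouse than in every control, with 2.30 to 2.87 against 1.51 to 1.78 FPKM for *Kit*, 39 to 47 against 26 to 35 reads for *Gata2* and 0.251 to 0.732 against 0.0530 to 0.208 FPKM for *Cma1*. So were 15.1% of all tested genes, and 14% of those at 0.1 FPKM or more in at least 3 mice. *Kit* was the one of these genes tested and was not called (limma adjusted p = 0.186). The 8 listed eosinophil genes summed to 3.18 to 5.38 FPKM in controls, 2.69 to 3.27 in TAI and 1.70 to 4.02 in TAI/IVIg mice, with 0 to 4 reads of *Epx*. The 12 macrophage and monocyte genes summed to 192 to 376, 144 to 330 and 85.4 to 313 FPKM. In TAI against control 1 was called higher and 3 lower, beside 8.81% and 26.1% of all genes. *Cd14*, the one called higher, had 4.62 to 6.83 FPKM in TAI mice against 2.29 to 4.57 FPKM in controls. Those called lower were *Ly6c2* (-1.85, limma adjusted p = 0.00177), *Ccr2* (-1.08, adjusted p = 0.00438) and *Cd68* (-0.95, adjusted p = 0.0131). The 12 neutrophil genes summed to 6.09 to 19.4 FPKM in controls, 7.09 to 20.2 in TAI and 6.35 to 9.74 in TAI/IVIg mice. Of the 5 tested, TAI against control called 2 higher and 0 lower, beside 8.81% and 26.1% of all genes. These were *Mmp9* (1.75, limma adjusted p = 0.00260) and *S100a9* (1.36, adjusted p = 0.0156), both highest in TAI 2 and lowest in TAI 3, as *Alox5* was. The part of these cells in the *Ltc4s*, *Alox5* and *Hpgds* levels was not tested. The platelet and erythroid genes, a background for *Gfi1b*, summed to 12.0 to 16.5 FPKM in controls, 10.4 to 11.6 in TAI and 7.86 to 9.90 in TAI/IVIg mice, both irradiated groups below the controls. Among them *Pf4* and *Itga2b*, genes of platelets, were higher in every TAI mouse than in every control, as 15.1% of all tested genes were. The levels were 1.98 to 2.55 against 0.160 to 1.18 FPKM for *Pf4* (1.06, limma adjusted p = 0.00762) and 0.687 to 1.05 against 0.190 to 0.342 FPKM for *Itga2b*. The haemoglobin genes *Hba-a1* (-0.96, limma adjusted p = 0.0235) and *Hbb-bs* (-0.89, adjusted p = 0.0362) were lower, though not with median-ratio sizes (adjusted p = 0.0913 and 0.147). The part of these genes' cells in the *Gfi1b* reads was not tested. *Avil* and *Dclk1* are also transcribed in neurons, whose 14 genes with those of glia summed to 21.0 to 24.4 FPKM in controls, 32.7 to 49.1 in TAI and 12.4 to 37.3 in TAI/IVIg mice. That sum was higher in every TAI mouse than in every control, as *Avil* was, and its part in the *Avil* level was not tested.

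Of the 6 tuft cell defining genes tested, none was called in any of the 3 comparisons. Of all genes tested, 34.9% were called in TAI against control, 46.4% in TAI/IVIg against control and 0% in TAI/IVIg against TAI. The median difference of the 6 genes from control was 0.18 after TAI and -0.08 after TAI/IVIg, against -0.24 and -0.39 for all genes. With median-ratio sizes 2 of them were called higher after TAI and 1 after TAI/IVIg, where 15.1% and 18.5% of all genes were.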

How the data were processed

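Bulk RNA-seq was run on the jejunum of 9 mice in 3 groups. The authors deposited FPKM per Ensembl gene. Submitters' notes list FastQC, Trimmomatic, STAR, featureCounts, DESeq2, mm10 and GRCm38 without versions, and strand and normalisation settings are not given in the sources used here. Dividing each FPKM by its step with GENCODE exon lengths gave whole reads for 100% of values (tolerance 0.0001 reads). limma 3.58.1 (R 4.3.3) was fitted to log2(FPKM + 1) of all 9 mice with a trend, over 13056 genes at 1 FPKM or more in at least 3 mice, with Benjamini-Hochberg adjusted p under 0.05 as a call. Fold changes on this scale understate those of low genes. Genes under the filter had two-sided exact permutation tests. Scripts were tested on simulated data.

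Deviations from group means correlated between same-numbered control and TAI mice (0.271, 0.241 and 0.308), a pairing that rests on these correlations alone. They did not between TAI/IVIg mice and the same-numbered others (-0.296 to 0.201). Among differently numbered mice the highest value was 0.408, for control 3 and TAI/IVIg 2. The main fit took no account of the numbers, and an alternative fit entered them as a block over all 9 mice. The 10 genes, the pathway and cell type lists, and the rule for naming genes (up to 3 per list and direction by smallest p in TAI against control, with other listed genes by level) were chosen with earlier results of these data known. Some genes were named by level after their values had been seen. Reads were also tested with limma voom, an alternative added after the data were seen. No column was left out.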

Additional observations from a re-analysis of the deposited data

How the results depend on the processing

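Among the tuft cell genes, none reversed in TAI against control under any of the alternatives run, and *Ltc4s* kept its call in all of them but one. Against the 1 tuft cell gene called in TAI against control, setting library medians equal called 4 (30.5% of all genes tested), median-ratio sizes 3 (29.8%), and 2 each were called with no filter (12.1%), no trend (35.0%), the 6 mice compared (36.6%), and median-ratio sizes with the filter at 0.1 FPKM (18.8%). Leaving out the 3 libraries richest in B cell genes called 0, and 1760 genes in all (13.5%) against 4561 (34.9%). In TAI/IVIg against control, where 46.4% of all genes were called, library medians set equal called 4 (36.6%), and median-ratio sizes called 2 with either filter (36.7% and 23.9%). In TAI/IVIg against TAI, 2 genes of all tested were called with the filter at 0.1 FPKM and 4 with none, none of them a tuft cell gene. With the replicate block 3 were called, and the block changed the call of no tuft cell gene (*Avil* in TAI against control, adjusted p = 0.0520). Leaving out 1 mouse at a time gave 2350 to 4912 genes and 1 to 2 tuft cell genes called in TAI against control, 4508 to 6055 genes and 1 to 2 tuft cell genes in TAI/IVIg against control, and 0 of either in TAI/IVIg against TAI. Fewer samples enter those fits.

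Signs turned for small differences. *Trpm5* in TAI/IVIg against TAI ran from -0.0644 without TAI/IVIg 2 to 0.217 without TAI/IVIg 1, and was -0.0347 without the 3 B cell libraries. *Avil* in TAI/IVIg against control became 0.45 with library medians equal, 0.42 with median-ratio sizes, 0.46 with those and the lower filter, and ran from -0.148 without TAI/IVIg 2 to 0.0922 without TAI/IVIg 3. *Sh2d6* in TAI/IVIg against control ran from -0.116 without control 1 to 0.25 without TAI/IVIg 1, and was -0.0454 without the 3 B cell libraries. The cause was not tested, apart from the reference level that each scaling sets. Depth limits *Il25*, *Gfi1b* and *Pou2f3*, with at most 25 reads in any mouse. edgeR and DESeq2, planned for count tables, were not run, and limma voom was used on the recovered reads.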
